A study of Mus musculus with 16 samples.

Results

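Skeletal muscle contractile and calcium genes are the genes for the sarcomere, for the membranes that release and take up its calcium, and for the energy supply of the fibre. The 38 genes described here are a listed set found by symbol among 19505 named genes on the array. The list was drawn up after the NP values of these arrays were known, so the genotype difference in NP is given as a description without a test, and the values that led to the list support nothing here.

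The arrays, Affymetrix Mouse Clariom S, measured RNA from the nucleus pulposus (NP), the soft core of the intervertebral disc, and from the annulus fibrosus (AF), the fibrous ring around it. Sirt6 cKO mice carried 2 floxed Sirt6 alleles and AcanCreERT2, a tamoxifen-inducible Cre driven from the aggrecan locus and aimed at NP, AF and endplate cells. Sirt6 fl/fl mice were their littermates without the Cre, and both genotypes received tamoxifen as young adults. All mice were males on a mixed C57BL/6Jx129SxFVB/NJ background, sampled at 24 months of age. There were 4 arrays in each of the 4 groups, NP cKO, NP fl/fl, AF cKO and AF fl/fl. Each array held tissue micro-dissected from several pooled lumbar and caudal discs of 1 mouse.

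In striated muscle, myosin heavy chains of the thick filament pull on actin of the thin filament when calcium binds the troponin complex. The ryanodine receptor releases that calcium from the sarcoplasmic reticulum, and the SERCA pump returns it. Fast and slow fibres use different paralogs of myosin, troponin and the pump. Skeletal muscle lies along the spine and tail next to the discs, whereas the disc itself holds no striated muscle. In bulk tissue, fewer cells of a type and less RNA per cell cannot be told apart.

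The deposited values are log2 signals, and each array carries 23 background control probe sets. The median of these controls was between 4.28 and 4.33 on the NP arrays and between 4.65 and 4.83 on the AF arrays. A gene is called over background here when its log2 signal was at least 1 unit, or 2-fold, above that median. Between 15.5% and 17.8% of all genes were over background on an NP array, and between 17.4% and 22.6% on an AF array. Sirt6 itself lay between 3.69 and 4.54 in NP and between 3.39 and 5.13 in AF and was not over background on any of the 16 arrays, so its signal does not check the genotype labels. NP cKO arrays 1 and 3 stood apart from the other 6 NP arrays in genes beyond muscle: Vim, the intermediate filament vimentin, read 13.31 and 13.28 there against 4.01 to 5.63 elsewhere in NP. AF cKO array 4 stood apart in the same manner for Acan, the disc proteoglycan aggrecan, at 10.35 against 6.08 to 7.05 on the other 7 AF arrays. Results that rest on these 3 arrays are given with and without them.

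Most of the muscle genes sat near background on most arrays. In NP, 8 of the 38 genes exceeded background on 4 or more of the 8 arrays, and 11 were over it on none; among all genes tested, 16.7% reached 4 of 8 arrays in NP. In AF the corresponding counts were 9 and 9, against 21.2% of all genes. Myh7, Tnni1, Myoz2 and Mybpc2, 4 genes in all, were over background on none of the 16 arrays. Of these, Myoz2 and Mybpc2 were among the 36 members that passed the filter on low signal, and 27.5% of all genes that passed it were likewise over background on no array. The number of muscle genes over background was 18 on NP cKO array 1 and 18 on NP cKO array 3, against 7 to 12 on the other cKO arrays and 8 or 9 on the fl/fl arrays. In AF it was 24 on cKO array 4, compared with 8 to 13 on the other cKO arrays and 8 to 10 on the fl/fl arrays. The average log2 signal over the 38 genes was 5.63 and 5.66 on NP cKO arrays 1 and 3, against 4.64 to 4.89 on the remaining 6 NP arrays. On AF cKO array 4 it was 6.50, against 5.11 to 5.38 on the remaining 7 AF arrays.

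**Figure D1:**
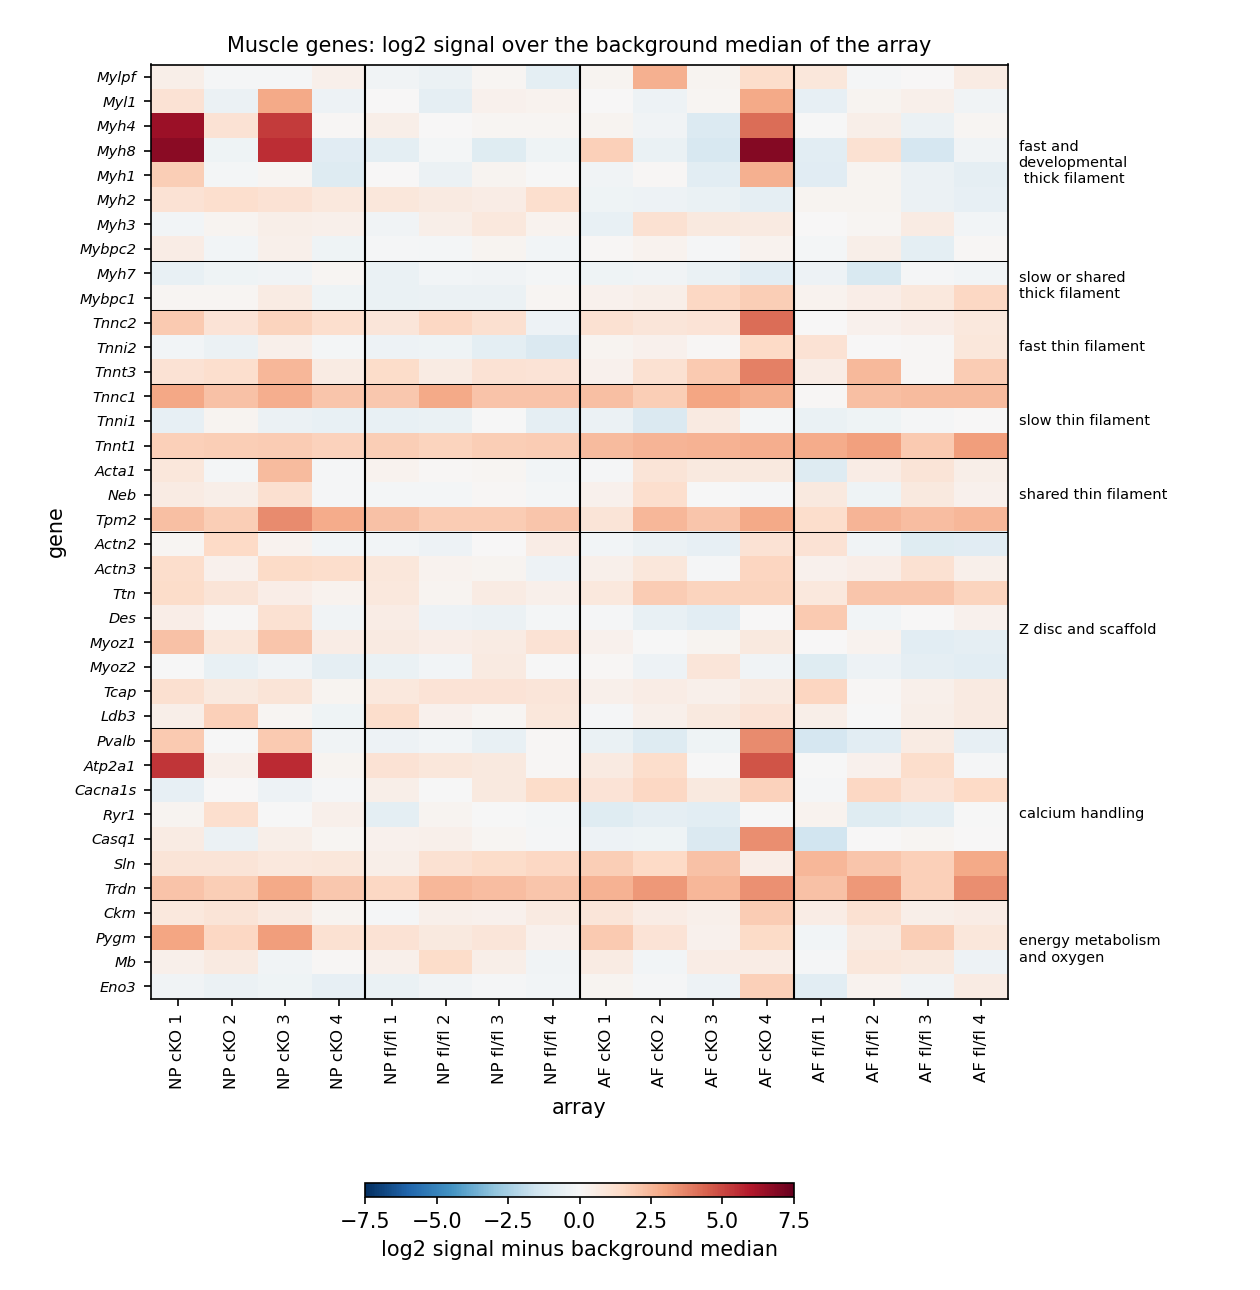
Log2 signal minus the background median of the array (colour) for the 38 muscle genes (rows, grouped by role) on the 16 arrays (columns, 4 per group). The darkest red cells are those of Myh4, Myh8 and Atp2a1 on NP cKO arrays 1 and 3 and AF cKO array 4, while Tnnt1, Tnnc1, Tpm2 and Trdn are pale red on nearly all arrays.

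The fast and developmental myosin heavy chains showed the widest spread among arrays. Myh8, the perinatal heavy chain, read 11.11, 3.98, 9.81 and 3.50 on NP cKO arrays 1 to 4, against 3.59, 4.18, 3.42 and 3.98 on the NP fl/fl arrays. Myh4, the heavy chain of the fastest (type IIb) fibres, read 10.73, 5.41, 9.51 and 4.39 in NP cKO, against 4.74, 4.36, 4.43 and 4.44 in NP fl/fl. For both genes cKO arrays 1 and 3 were far above every other NP array, and cKO arrays 2 and 4 fell within 1 log2 unit of the fl/fl range. The difference of the NP means, cKO minus fl/fl, was 3.31 for Myh8 and 3.02 for Myh4 on the log2 scale with all arrays. Without cKO arrays 1 and 3 it was -0.05 for Myh8 and 0.41 for Myh4.

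In AF the same pair of genes was high on 1 array. Myh8 read 6.42, 4.31, 3.59 and 11.62 on AF cKO arrays 1 to 4, against 4.04, 5.87, 3.48 and 4.51 on the AF fl/fl arrays. Myh4 read 4.85, 4.54, 3.73 and 8.93 in AF cKO, against 4.78, 5.18, 4.29 and 4.93 in AF fl/fl. Leaving aside cKO array 4, the genotypes overlapped for both genes. The AF difference of Myh8 was 2.01 ± 1.33 (SE, n = 4 arrays each; limma with Benjamini-Hochberg adjustment over 16665 genes, adjusted p = 0.984), and it was 0.30 without cKO array 4. That of Myh4 was 0.72 ± 0.87 (SE; limma adjusted p = 0.989) and changed sign to -0.42 without that array.

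The 5 fast and developmental heavy chain genes of the set, Myh1, Myh2, Myh3, Myh4 and Myh8, lie together on chromosome 11 and are close in sequence, so probes for one could also read another; the sources used here do not say how far they do. Their signals nevertheless differed among arrays. Myh1, the type IIx heavy chain, read 6.16 and 4.41 on NP cKO arrays 1 and 3, against 3.37 to 4.53 on the remaining 6 NP arrays, and 7.38 on AF cKO array 4, with 3.99 to 4.90 on the other 7. Myh2, the type IIa chain, read 5.39, 5.59, 5.38 and 5.11 in NP cKO, against 5.19, 4.97, 4.86 and 5.58 in NP fl/fl, and no AF array read above 5.05. Myh3, the embryonic chain, lay between 4.03 and 5.07 in NP and between 4.12 and 5.91 in AF. Myh2 and Myh3 thus did not stand out on the 3 arrays that were high for Myh4 and Myh8.

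The start regions of Myh8 and Myh4 are shown because these genes moved together across the arrays, with those of Atp2a1, which followed the same arrays, and Ckm, which did so weakly or not at all. They are the 250 bases before the annotated start, from RefSeq on GRCm38.p6, in the direction of the gene. Capitals mark the E-box letters CANNTG, the letters TATAAA and the motif named MEF2, each searched on both strands.
Myh8 (chr11:67276874-67277123, plus strand): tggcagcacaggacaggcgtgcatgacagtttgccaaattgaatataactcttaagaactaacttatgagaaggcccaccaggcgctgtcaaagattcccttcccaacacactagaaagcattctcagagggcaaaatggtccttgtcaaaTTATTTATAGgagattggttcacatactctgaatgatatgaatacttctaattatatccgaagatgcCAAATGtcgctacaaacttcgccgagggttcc
Myh4 (chr11:67237562-67237811, plus strand): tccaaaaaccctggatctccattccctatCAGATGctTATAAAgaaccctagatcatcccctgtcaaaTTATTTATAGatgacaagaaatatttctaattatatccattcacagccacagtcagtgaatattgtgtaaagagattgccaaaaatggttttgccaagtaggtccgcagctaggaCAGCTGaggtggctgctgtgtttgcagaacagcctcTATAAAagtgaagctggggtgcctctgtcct
Atp2a1 (chr7:126463074-126463323, minus strand): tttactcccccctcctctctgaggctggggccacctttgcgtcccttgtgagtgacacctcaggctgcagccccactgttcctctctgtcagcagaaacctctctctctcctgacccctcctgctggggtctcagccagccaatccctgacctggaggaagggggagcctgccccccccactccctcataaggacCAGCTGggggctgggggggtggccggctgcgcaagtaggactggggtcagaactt
Ckm (chr7:19410844-19411093, plus strand): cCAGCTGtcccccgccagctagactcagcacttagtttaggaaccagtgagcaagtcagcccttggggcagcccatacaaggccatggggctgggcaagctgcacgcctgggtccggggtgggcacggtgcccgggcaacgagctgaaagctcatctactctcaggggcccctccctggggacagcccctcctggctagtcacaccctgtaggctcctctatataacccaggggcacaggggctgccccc
Both myosin windows hold 1 MEF2 match, and the letters around it form an identical run of 17 bases, tgtcaaaTTATTTATAG. In both Myh8 and Myh4 a TATAAA match on the other strand overlaps that MEF2 match. The Atp2a1 and Ckm windows each hold 1 CANNTG and neither TATAAA nor MEF2. Windows of this length were found for 30 of the 38 genes, 36 windows in all. CANNTG occurred in 83.3% of these windows and in 66.2% of all 32851 promoter windows, TATAAA in 19.4% and 12.4%, and MEF2 in 16.7% and 2.92%. A match is a description of letters and says nothing of binding in these tissues.

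Calcium handling genes included the pump and buffer of fast fibres, which followed the myosins. Atp2a1 encodes SERCA1, the calcium pump of fast fibres. It read 9.66, 4.70, 9.90 and 4.55 in NP cKO, against 5.39, 5.18, 5.02 and 4.37 in NP fl/fl. It read 5.35, 6.14, 4.73 and 9.45 in AF cKO, against 4.80, 5.03, 6.06 and 4.72 in AF fl/fl. Atp2a1 was named after its values were seen. As with the myosins, NP cKO arrays 1 and 3 and AF cKO array 4 were the high arrays, and all the others overlapped between genotypes. The NP difference was 2.22 with all arrays and -0.36 without cKO arrays 1 and 3; the AF difference was 1.27 ± 0.81 (SE; limma adjusted p = 0.984) and 0.25 without cKO array 4.

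Pvalb encodes parvalbumin, a soluble calcium buffer of fast fibres that is also found in some neurons. It read 6.27, 4.27, 6.22 and 4.09 in NP cKO, against 3.96, 4.11, 3.76 and 4.41 in NP fl/fl, and 4.14, 3.82, 4.44 and 8.27 in AF cKO, against 3.58, 3.95, 5.37 and 4.14 in AF fl/fl. Its NP difference was 1.16 with all arrays and 0.13 without the pair of high arrays. Its AF difference of 0.91 ± 0.82 (SE; limma adjusted p = 0.984) became -0.13 without cKO array 4. Casq1, calsequestrin of the fast-fibre calcium store, was high on AF cKO array 4 at 8.24, against 3.41 to 4.90 on the other AF arrays, and was not over background on any NP array.

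Trdn and Ryr1, 2 genes of the release apparatus, did not share this pattern. Trdn encodes triadin, which anchors calsequestrin to the release channel. It read 6.46, 6.19, 7.11 and 6.36 in NP cKO, against 5.89, 6.77, 6.62 and 6.38 in NP fl/fl, and 7.26, 8.07, 7.26 and 8.16 in AF cKO, against 7.01, 7.98, 6.53 and 8.26 in AF fl/fl. It was over background on all 16 arrays and its genotypes overlapped in both tissues. Ryr1, the release channel itself, lay between 3.56 and 5.60 in NP and between 3.73 and 5.12 in AF, and was over background on 1 array only, NP cKO array 2.

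Cacna1s, the voltage sensor of the surface membrane, was the 1 member that ran lower in NP cKO past the thresholds of the study. It read 3.70, 4.35, 3.89 and 4.24 in NP cKO, against 4.79, 4.28, 5.06 and 5.66 in NP fl/fl, a difference of -0.90. It did not pass those thresholds without NP fl/fl array 4, nor without NP cKO array 1. No NP cKO array and 1 NP fl/fl array was over background for it. In AF it read 5.66, 6.32, 5.53 and 6.45 in cKO, against 4.75, 6.30, 5.77 and 6.28 in fl/fl, and the genotypes overlapped. Sln, sarcolipin, a small inhibitor of the pump, read 6.47, 6.30, 6.99 and 5.21 in AF cKO, against 7.31, 6.80, 6.53 and 7.60 in AF fl/fl. Its lowest AF value was on cKO array 4, the array that was highest for Atp2a1. The AF difference of Sln was -0.82 ± 0.42 (SE; limma adjusted p = 0.984), and it was -0.47 without cKO array 4.

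**Figure D2:**
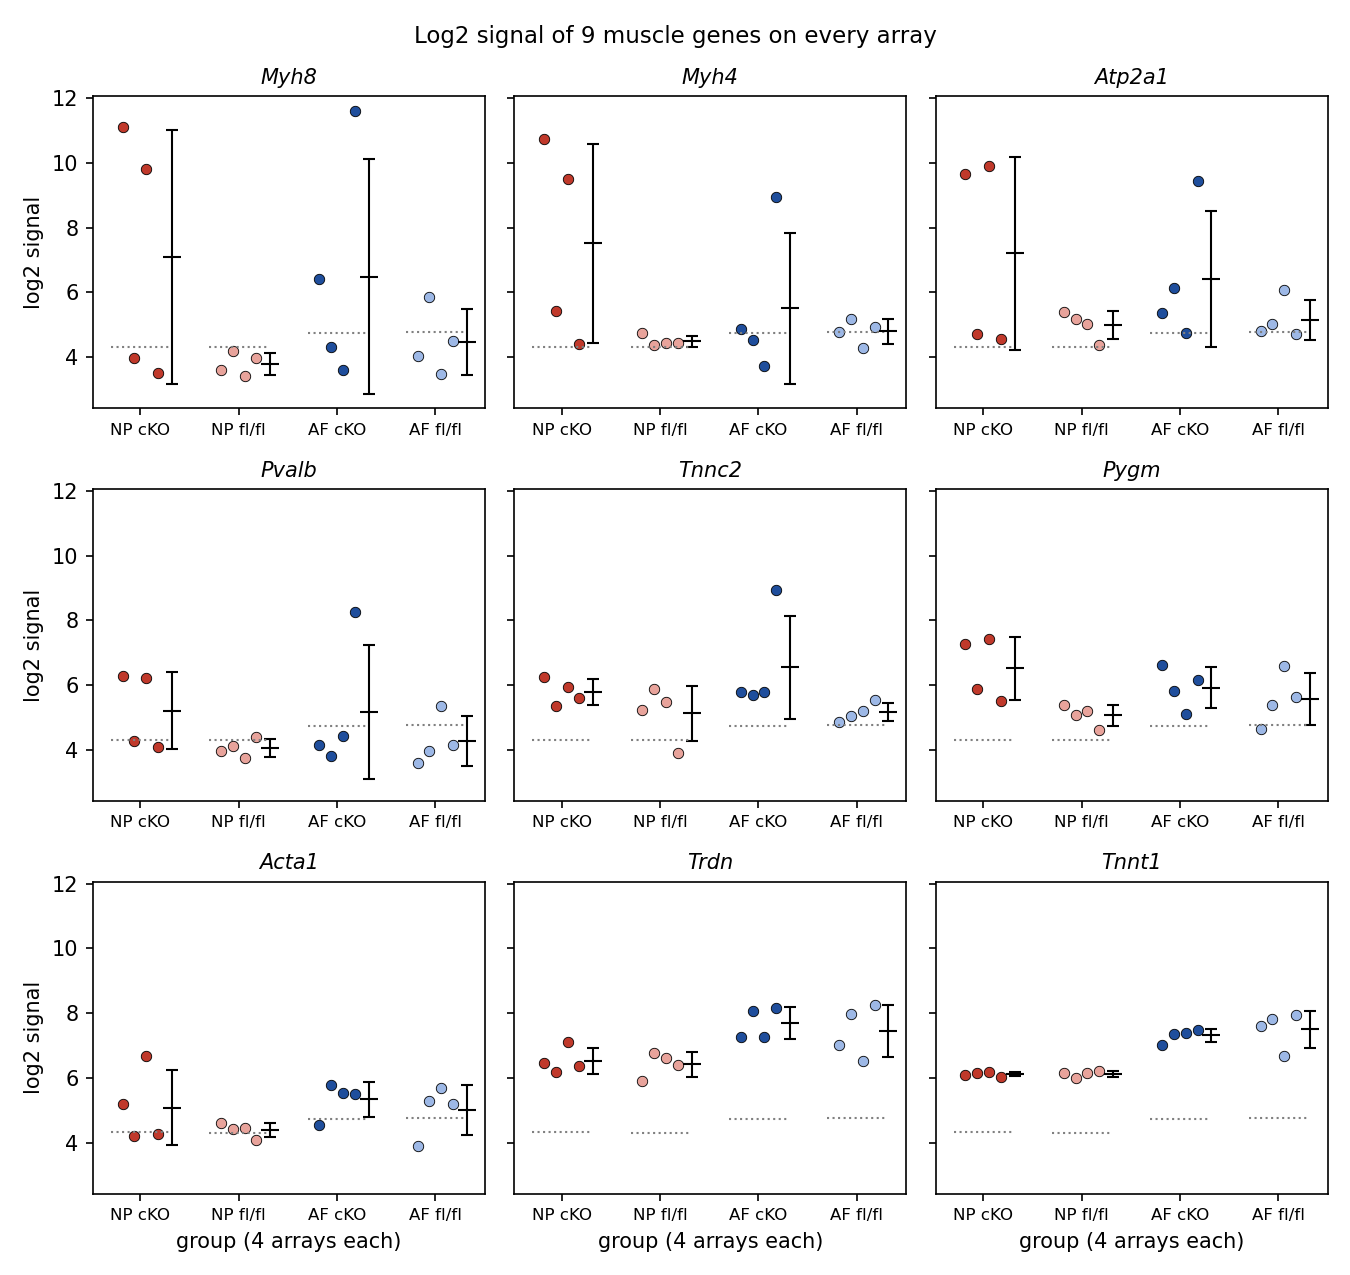
Log2 signal of 9 muscle genes on each array (points, in array order within a group), with the group mean and SD (black, n = 4 arrays) and the mean background median of the group (dotted). Myh8, Myh4, Atp2a1 and Pvalb separate 2 NP cKO arrays and 1 AF cKO array from the rest, whereas the points of Trdn and Tnnt1 overlap between genotypes.

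Among thin filament genes, the fast troponins Tnnc2, Tnnt3 and Tnni2 had their highest AF signal on cKO array 4. Tnnc2, the calcium-binding subunit of fast fibres, read 5.78, 5.71, 5.79 and 8.93 in AF cKO, against 4.87, 5.06, 5.21 and 5.54 in AF fl/fl. All 4 cKO arrays were above all fl/fl arrays. The AF difference was 1.38 ± 0.63 (SE, n = 4 each; limma unadjusted p = 0.047, adjusted p = 0.984), and it was 0.59 without cKO array 4. The unadjusted p was above 0.05 without cKO array 4 and without each single fl/fl array. In NP it read 6.25, 5.37, 5.94 and 5.59 in cKO, against 5.24, 5.87, 5.48 and 3.91 in fl/fl, with overlap. Tnnt3, the tropomyosin-binding subunit of fast fibres, read 4.99, 5.96, 6.74 and 8.53 in AF cKO, against 5.36, 7.17, 4.82 and 6.66 in AF fl/fl. In NP, Tnnt3 read 5.41, 5.58, 6.78 and 4.93 in cKO, against 5.67, 4.92, 5.40 and 5.30 in fl/fl. Its highest values were on NP cKO array 3 and AF cKO array 4, with overlap of the other arrays in both tissues. Tnni2, the inhibitory subunit of fast fibres, was not over background on any NP array, and read 6.21 on AF cKO array 4, against 4.77 to 5.92 on the other 7 AF arrays.

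Of the slow-fibre troponins, Tnnt1 and Tnnc1 read over background in both genotypes. Tnnt1 read 6.10, 6.15, 6.17 and 6.03 in NP cKO, against 6.15, 5.98, 6.15 and 6.20 in NP fl/fl. In AF, Tnnt1 read 7.02, 7.34, 7.39 and 7.47 in cKO, against 7.60, 7.82, 6.67 and 7.93 in fl/fl. It was over background on all 16 arrays, with SDs of 0.06 in NP cKO and 0.09 in NP fl/fl. NP cKO array 2 and NP fl/fl arrays 1 and 3 held the identical value, 6.15084. Whether the near-constant NP reading of Tnnt1 measures its transcript was not tested. Tnnc1, the calcium-binding subunit shared by slow fibres and heart, read 7.19, 6.50, 7.03 and 6.42 in NP cKO, against 6.32, 7.14, 6.47 and 6.41 in NP fl/fl. In AF, Tnnc1 read 6.91, 6.63, 7.75 and 7.37 in cKO, against 4.94, 6.95, 7.09 and 7.18 in fl/fl. The 3 arrays high for Myh4 lay among the others for Tnnt1, and for Tnnc1 except that NP cKO array 1 was the highest NP array, at 7.19 against 7.14. The widest departure in either gene was the low Tnnc1 signal of AF fl/fl array 1. Tnni1, the third slow subunit, was over background on none of the 16 arrays, and neither was Myh7, the slow heavy chain. In both genotypes, then, 2 of the 3 slow troponins read over background, with the limit given for Tnnt1 in NP. The other and the slow heavy chain were not over background.

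Genes shared by fast and slow thin filaments moved less than the fast myosins. Acta1, skeletal muscle actin, read 5.18, 4.19, 6.67 and 4.26 in NP cKO, against 4.60, 4.42, 4.43 and 4.09 in NP fl/fl. It read 4.54, 5.78, 5.52 and 5.48 in AF cKO, against 3.89, 5.27, 5.69 and 5.20 in AF fl/fl. Acta1 is described although the rule for printed values did not select it, because actin is a main protein of the fibre: NP cKO array 3 was the 1 array on which it was over background. Tpm2, beta-tropomyosin, which is also made outside skeletal muscle, read 6.60, 6.13, 7.84 and 7.14 in NP cKO, against 6.52, 6.18, 6.22 and 6.36 in NP fl/fl. In AF it read 5.63, 7.28, 6.84 and 7.57 in cKO, against 6.15, 7.25, 7.06 and 7.29 in fl/fl. Its genotypes overlapped in both tissues. Neb, nebulin, the ruler of the thin filament, was over background on NP cKO array 3 alone in NP and on AF cKO array 2 alone in AF.

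Of the remaining thick filament genes, the light chain genes were high on different arrays. Myl1, the fast essential light chain, read 5.41 and 7.13 on NP cKO arrays 1 and 3, against 3.64 to 4.62 on the other 6, and 7.59 on AF cKO array 4, compared with 4.21 to 5.09 on the other 7. Mylpf, the fast regulatory light chain, was not over background on any NP array and was highest on AF cKO array 2 at 7.47, with 6.08 on cKO array 4. Mybpc1 and Mybpc2, the slow and fast myosin-binding proteins C, were over background on no NP array, and in AF Mybpc1 was over it on 2 cKO arrays and 1 fl/fl array.

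Z disc and scaffold genes were mostly near background. Ttn, titin, the spring of the sarcomere, read 5.43, 6.71, 6.42 and 6.39 in AF cKO, against 5.60, 6.82, 6.82 and 6.42 in AF fl/fl, and lay between 4.51 and 5.72 in NP. Its genotypes overlapped in both tissues. Actn3, the alpha-actinin of fast fibres, read 5.64, 4.65, 5.72 and 5.62 in NP cKO, against 5.16, 4.58, 4.53 and 3.93 in NP fl/fl. The NP difference of Actn3 was 0.85, and 0.58 without cKO arrays 1 and 3; here cKO array 4 was about as high as cKO array 1. Myoz1, a Z disc protein of fast fibres, read 6.52 and 6.34 on NP cKO arrays 1 and 3, against 4.78 to 5.40 on the remaining 6 NP arrays, but lay between 3.94 and 5.45 in AF. Myoz2, its slow and cardiac relative, read 4.73, 4.40, 5.71 and 4.48 in AF cKO, against 3.90, 4.35, 4.05 and 4.00 in AF fl/fl. These groups did not overlap, though no array was over background for Myoz2 (difference 0.75 ± 0.36, SE; limma adjusted p = 0.984; 0.46 without cKO array 3). Des, desmin, the muscle intermediate filament, averaged 4.40 ± 0.34 in AF cKO and 5.30 ± 1.04 in AF fl/fl (SD, n = 4 each), and its AF fl/fl mean included 1 array at 6.81. Without that array, fl/fl array 1, the AF difference of Des was -0.40, against -0.90 with all arrays. Actn2, Tcap and Ldb3, the further Z disc genes, lay between 3.81 and 6.44 over all arrays, with overlapping genotypes in both tissues.

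Genes for energy supply did not share 1 pattern over the 3 arrays. Pygm encodes the muscle form of glycogen phosphorylase, which frees glucose units from glycogen. It read 7.27, 5.86, 7.42 and 5.50 in NP cKO, against 5.39, 5.07, 5.20 and 4.62 in NP fl/fl. It was the 1 gene of the set whose NP cKO arrays all lay above the NP fl/fl arrays, and its NP difference was 1.44 with all arrays and 0.61 without cKO arrays 1 and 3. In AF it read 6.62, 5.81, 5.09 and 6.16 in cKO, against 4.64, 5.39, 6.60 and 5.63 in fl/fl, with overlap. Ckm, muscle creatine kinase, one of the most abundant transcripts of muscle, was not over background on any NP array and read 5.13 and 4.95 on NP cKO arrays 1 and 3. On AF cKO array 4 it read 6.67, against 5.14 to 5.87 on the other 7 AF arrays. Eno3, muscle enolase, was 6.54 on AF cKO array 4 and at background in NP. Mb, myoglobin, the oxygen store of slow and oxidative fibres, lay between 4.04 and 5.66 in NP and between 4.41 and 5.60 in AF.

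Taking the NP genotype comparison over the set as a description, 5 of the 36 genes that passed the filter on low signal were higher in cKO past the study's thresholds (unadjusted p up to 0.05 with a difference of 0.81 or more on the log2 scale), namely Pvalb, Myh4, Myh8, Pygm and Actn3. Over all 16665 genes tested, 1.41% were higher at these thresholds. Cacna1s alone was lower, against 0.978% of all genes. Only Pygm had no overlap with cKO above fl/fl, against 1.3% of all genes, and no gene of the set had all cKO arrays below all fl/fl arrays, against 1.51%. These values chose the list, so nothing is read from the counts. Of the 36 genes, 26 had a positive NP difference, against 47.2% of all genes, with a median of 0.39. Without cKO arrays 1 and 3, 18 were positive and 18 negative, with a median of -0.00089.

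In AF, whether deletion of Sirt6 changed the muscle genes was tested with limma over all genes. None of the 36 genes, and none of 16665 in all (0%), reached an adjusted p under 0.05. At an unadjusted p under 0.05 there was 1 gene of the set, Tnnc2, and 4% of all genes. Tnnc2 was also the 1 member that was higher at the thresholds of the study, against 1.97% of all genes, and none was lower, against 1.57%. Tnnc2 and Myoz2 were the genes of the set without overlap and with cKO above fl/fl, against 1.43% of all genes, and none had cKO below fl/fl, against 1.18%. A positive AF difference was seen in 26 of the 36 genes, against 50.7% of all genes, with a median of 0.24. Without cKO array 4, 16 were positive and 20 negative, and the median was -0.05.

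**Figure D3:**
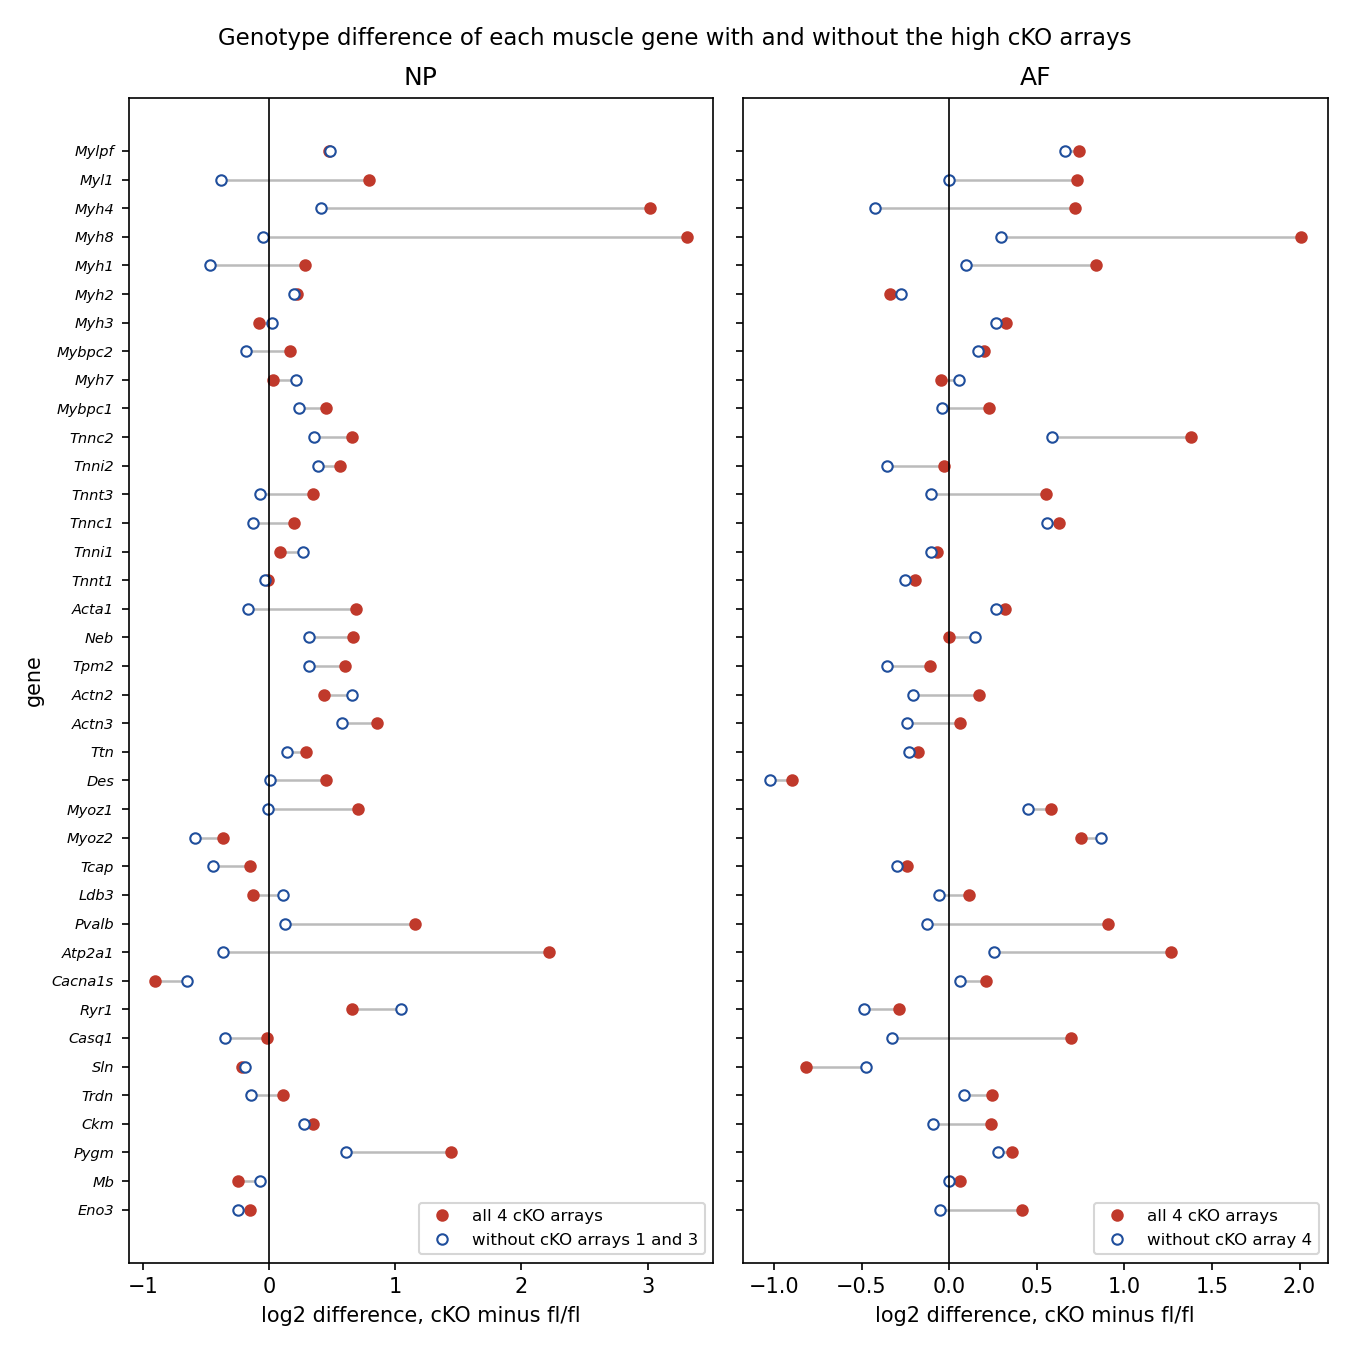
Difference of mean log2 signal, cKO minus fl/fl, for each muscle gene in NP (left) and AF (right), with all 4 cKO arrays (filled points) and without the high cKO arrays (open points). Over the 36 genes that passed the filter on low signal, the open points have medians of -0.00089 in NP and -0.05 in AF. The longest lines belong to Myh8, Myh4 and Atp2a1 in NP and to Myh8 in AF.

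The array pattern was then counted over all genes, after the values had been seen and so without a test. Pvalb, Atp2a1, Myh4, Myh8 and Pygm, 5 of the 36 genes, were at least 2-fold higher on both NP cKO arrays 1 and 3 than on each of the other 6 NP arrays, as were 1.18% of all genes. On AF cKO array 4, 10 of the 36 genes were at least 2-fold above each of the other 7 AF arrays: Myl1, Tnnc2, Tnnt3, Pvalb, Atp2a1, Myh4, Myh8, Myh1, Casq1 and Eno3. Over all genes the share was 1.32%. Both patterns held for Pvalb, Atp2a1, Myh4 and Myh8, and for 35 genes in all (0.21%). Those 35 genes were mostly not muscle genes. They included Rpsa, a ribosomal protein, B2m, the light chain of class I histocompatibility molecules, Acan, Fn1, the matrix protein fibronectin, Mgp, the matrix Gla protein, and Fabp4, a fatty acid carrier of fat cells. Tpm1, alpha-tropomyosin, was the only one of the 35 in the wider muscle lists.

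The average over all wider muscle lists beside the 38 genes was also highest of its tissue on the 3 arrays, by smaller steps. These lists, for other sarcomere genes, calcium release, fibre metabolism, the neuromuscular junction and myogenic factors, had 106 measured genes. Their average log2 signal was 4.78 and 4.83 on NP cKO arrays 1 and 3, against 4.56 to 4.68 on the remaining 6 NP arrays, and 5.36 on AF cKO array 4, compared with 4.92 to 5.20 on the other 7. Of 92 that passed the filter, 4 followed the NP pattern (Tpm1, Cryab, Fxyd1 and Ldha), as did 1.18% of all genes, and 6 followed the AF pattern (Xirp2, Tpm1, Hrc, Cox8b, Slc25a4 and Mef2a), as did 1.32% of all genes. Fibre metabolism genes averaged 5.04 and 5.15 on the NP pair, where no other NP array exceeded 4.88. On AF cKO array 4 they averaged 5.67, where no other AF array exceeded 5.40. The separate lists did not all rise. Neuromuscular junction genes averaged 4.28 and 4.62 on the NP pair, against 4.17 to 4.66, and 4.85 on AF cKO array 4, against 4.94 to 5.27. Myogenic factors averaged 4.50 and 4.30 on the NP pair, against 4.36 to 4.62. On AF cKO array 4, however, the myogenic factors averaged 5.09, above the 4.54 to 5.03 of the other 7. Other sarcomere genes averaged 5.23 on AF cKO array 4, within 4.92 to 5.25. Of the 92 genes of all these lists, 2 were higher and 0 lower in NP at the thresholds of the study (1.41% and 0.978% of all genes). In AF, 4 of them were higher and 2 lower (1.97% and 1.57%), and none was called at an adjusted p under 0.05. Tpm1 and Ldha, lactate dehydrogenase A, are also made outside muscle. The median difference of the 92 genes was 0.07 in NP and 0.02 in AF.

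Within the 38 genes, the average signal of the 3 arrays differed by role, and some NP averages rest on 1 or 2 genes. The fast and developmental thick filament genes averaged 6.57 and 6.22 on NP cKO arrays 1 and 3, against 4.22 to 4.49 on the other 6, and 7.01 on AF cKO array 4, compared with 4.43 to 5.12 on the other 7. The calcium handling genes averaged 5.83 and 5.89 on the NP pair, against 4.71 to 5.0, and 7.22 on the AF array, against 5.14 to 5.79. Of these 7 genes, only 2, Pvalb and Atp2a1, were at least 2-fold higher on the NP pair than on each other NP array. The fast thin filament genes averaged 7.89 on AF cKO array 4, against 4.95 to 5.93, and 5.26 and 5.80 on the NP pair, against 4.13 to 4.96. The energy genes averaged 5.28 and 5.09 on the NP pair, against 4.42 to 5.01, and 6.17 on the AF array, against 4.71 to 5.59. Pygm was the only 1 of these 4 genes at least 2-fold higher on the NP pair than on each other NP array. The Z disc and scaffold genes were closer to the other arrays, at 5.21 and 5.07 against 4.44 to 5.03 in NP and at 5.55 against 4.85 to 5.49 in AF. The shared thin filament genes averaged 5.57 and 6.67 on the NP pair, above the 4.87 to 5.22 of the rest, and 5.91 on the AF array, within the 5.04 to 6.38 of the rest. Slow or shared thick filament genes averaged 4.10 and 4.46 on the NP pair, with 3.82 to 4.29 on the rest, and 5.27 on the AF array, within 4.42 to 5.46. The slow thin filament genes averaged 5.67 and 5.67 on the NP pair, within the 5.40 to 5.72 of the other 6 arrays, and 6.47 on the AF array, within the 5.63 to 6.86 of the other 7.

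Markers of skeletal muscle and of other tissues were set beside these values to describe what else the 3 arrays held. Of 9 defining markers of the muscle fibre (Acta1, Ckm, Mylpf, Tnnc2, Tnni2, Tnnt3, Myh4, Pvalb and Atp2a1, all members), 5 were over background on NP cKO array 1, 6 on NP cKO array 3 and 8 on AF cKO array 4. On the other 6 NP arrays the count was 1 to 3, and on the other 7 AF arrays 1 to 3. Over all genes, 16.4%, 17.8% and 22.6% were over background on NP cKO arrays 1 and 3 and AF cKO array 4. The markers are not independent of the pattern, since Myh4, Pvalb and Atp2a1 are among the genes that set these arrays apart. Beside them, only Tnnc2 and Tnnt3 were over background on NP cKO array 1, as on NP cKO array 2 and NP fl/fl array 3. On NP cKO array 1, Ckm, Acta1, Mylpf and Tnni2 were not over background while Myh4 and Atp2a1 read 10.73 and 9.66. On AF cKO array 4, Acta1 was the marker that was not over background, at 5.48. Pax7, Myod1, Myog and Myf6, markers of muscle stem cells and of their differentiation, were over background on none of the 16 arrays, and Myf5 was over it on AF fl/fl array 1 alone.

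Genes unrelated to muscle moved with the same arrays. The cartilage list averaged 9.22 on AF cKO array 4, against 5.26 to 6.0 on the remaining 7 AF arrays, and 5.63 and 5.86 on NP cKO arrays 1 and 3, against 4.64 to 5.11 on the remaining 6 NP arrays. Acan read 10.82 and 11.31 on the NP pair, against 5.61 to 7.38. Cytosolic ribosomal protein genes, which all cells express, averaged 9.65 and 9.21 on the NP pair, against 6.10 to 8.83. Those averages include Rpsa at 19.93 on each of the pair, the highest signal of the series, against 6.51 to 10.78 elsewhere in NP. Of the 21 ribosomal genes, 8 had a positive NP difference, with a median of -0.18. On AF cKO array 4 the ribosomal genes averaged 9.30, within the 6.22 to 9.54 of the other 7 AF arrays. AF fl/fl array 2, the array at 9.54, had an average of 5.34 over the 38 muscle genes. Smooth muscle and heart lists averaged 5.16 and 4.82 on AF cKO array 4, against highest values of 5.15 and 5.16 on the other 7, so the heart list did not stand out. On NP cKO arrays 1 and 3 smooth muscle averaged 5.10 and 4.78, compared with 4.28 to 4.90 elsewhere in NP, and heart 4.70 and 4.60, compared with 4.59 to 5.12. Some other lists were also highest of their tissue on these arrays, and some were not. On the NP pair the NP and notochord list averaged 5.92 and 5.92, with at most 5.57 elsewhere in NP, the Schwann cell and nerve list (4 measured genes) 5.44 and 5.46, with at most 5.01, and the fat list 5.17 and 5.16, with at most 5.0. On AF cKO array 4 the macrophage and leukocyte list averaged 5.86, with at most 5.28 elsewhere in AF, and the osteoblast list 5.39, with at most 5.12. The annulus and tendon list averaged 6.04 there, with at most 5.78 elsewhere, and the fat list 6.07, with at most 5.99. The Schwann cell and nerve list averaged 5.36 there, with at most 5.07 elsewhere, and an osteoclast list 4.52, with at most 4.39. Not all lists rose there. On the NP pair the endothelium list averaged 3.95 and 4.16, against 4.08 to 4.51 elsewhere in NP. The erythroid list averaged 4.26 and 4.45, against 4.42 to 4.72, and the osteoblast list 4.31 and 4.10, against 4.20 to 4.48. The epidermis list lay within the range of the other arrays of its tissue on all 3 arrays. Whether adjoining muscle, RNA quality or the composition of the dissected tissue had a part in the muscle signal of the 3 arrays was not tested.

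**Figure D4:**
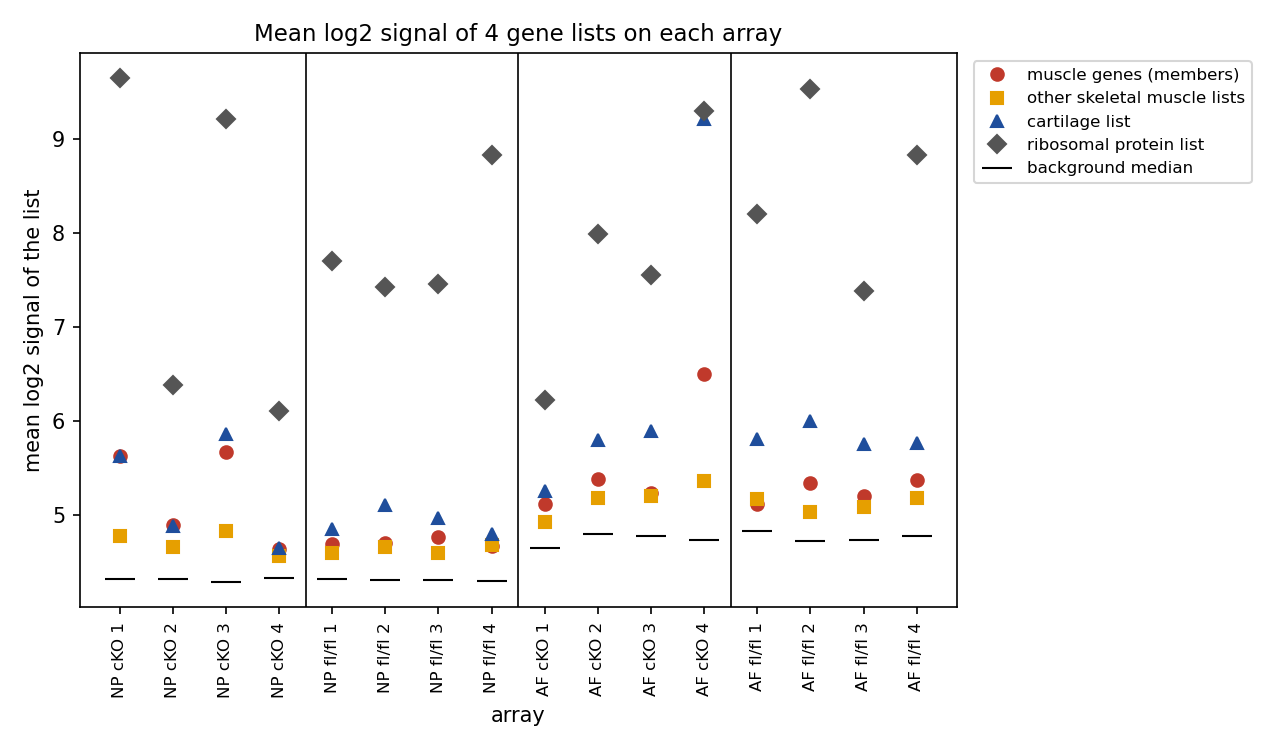
Mean log2 signal (y axis) of the 38 muscle genes, the other skeletal muscle lists, the cartilage list and the ribosomal protein list on each of the 16 arrays (x axis), with the background median of the array as a black dash. The muscle genes stand above their neighbours on NP cKO arrays 1 and 3 and on AF cKO array 4, where the cartilage list is also high. The average over all other skeletal muscle lists is highest of its tissue on these arrays by smaller steps.

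Genes outside the set were ranked by how closely they followed it, with the 38 members left out of the ranking. Likeness was Pearson's r, over the 8 arrays of a tissue, with the mean of the 16 members that exceeded background on 4 or more of all arrays. Some of the 16, such as Myh4, Myh8 and Atp2a1, reached that count partly or mainly through the 3 high arrays. The r with all arrays therefore leans on those arrays. Each r rests on the same 8 arrays, and it is a description with no test. In NP the 10 non-members with the highest r were Parva, Tcea3, Vim, Iscu, Kdm6b, Ube2e3, Eef2, Hp1bp3, Plac9b and Dlg4, with r of 0.99 to 1.00. Without cKO arrays 1 and 3 their r over 6 arrays ran between 0.06 for Ube2e3 and 0.93 for Parva. In AF they were Penk, Elf2, Usp4, Ptgis, Senp1, Invs, Nptn, Cep295nl, Cers2 and Htr7, with r of 0.95 to 0.99, and between 0.65 and 0.91 over 7 arrays without cKO array 4.

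Levels in the 2 tissues are given side by side only, since the array medians differed (4.41 to 4.49 in NP and 4.93 to 5.0 in AF) and no source used here says if the 2 tissues shared 1 normalization. Tnnt3, Pygm, Tnnc1, Tnnt1, Tpm2 and Trdn were over background on at least 4 of 8 arrays in both tissues. Tnnc2 and Myh2 reached this in NP alone, and Cacna1s, Ttn and Sln in AF alone.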

How the data were processed

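NP and AF RNA from 4 Sirt6 cKO and 4 Sirt6 fl/fl mice was labelled and hybridised to 16 Mouse Clariom S arrays. The authors scanned them and normalized them with SST-RMA and deposited log2 signals for 28846 probe sets; the Transcriptome Analysis Console is named per the labels. Symbols came from the platform table (19505, highest-mean probe set for 55 symbols with several). The members and lists were chosen with earlier results of these data known. Genes whose log2 signal exceeded the 40th percentile of the array on at least 4 of 16 arrays were kept (16665, with 36 of 38 members). limma 3.58.1 in R 4.3.3 compared 4 against 4 arrays within a tissue, with Benjamini-Hochberg adjustment, and was tested on simulated data. The study's own permutation method was not run. Array signals carry no read depth, and the number of arrays limits precision. Values were printed for members over background on at least 4 of 8 arrays of a tissue, or past the study's thresholds, and otherwise as ranges. Equal replicate numbers were not treated as pairs.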

Additional observations from a re-analysis of the deposited data

Results flagged for a closer look

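In 12 of 152 checks, one for each of the 38 genes in each group of 4 arrays, 1 array lay far from the other 3; chance gives about 1 in 20. In AF cKO, array 4 was high for Myl1 (7.59), Tnnc2 (8.93), Pvalb (8.27) and Casq1 (8.24). In AF cKO, array 2 was low for Mb (4.59). In AF fl/fl, array 1 was low for Tnnc1 (4.94) and Casq1 (3.41), and array 3 was high for Actn3 (5.87). In NP cKO, array 2 was high for Tnni1 (4.49) and low for Actn3 (4.65). In NP fl/fl, array 3 was high for Neb (4.40) and array 4 for Mybpc1 (4.44).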

How the results depend on the processing

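Of 170 values recomputed with all arrays or without the NP pair, 166 kept their direction and side of the threshold or stayed within the spread between arrays, and 4 moved. The AF count of muscle genes past the study's thresholds, 1 with all arrays, was 0 under the stricter filter and 2 in 1 fit over all 16 arrays, and 0 to 4 when each array was left out in turn: it was 0 when cKO array 4 or any of fl/fl arrays 1, 3 and 4 was dropped, and 1 after dropping fl/fl array 2, where Des was lower and Tnnc2 no longer passed. After dropping cKO array 2 it was 2, both higher (Tnnc2 and Myoz2). After dropping cKO array 3 it was 4, of which 3 were higher (Tnnc2, Myh8 and Atp2a1) and 1 lower (Sln). In the fit over all arrays Tnnc2 was higher and Sln lower. The cause was not tested. The AF median difference then ran between -0.05 (without cKO array 4) and 0.38. Without AF cKO array 4 the difference changed sign to -0.10 for Tnnt3, -0.13 for Pvalb, -0.42 for Myh4, -0.33 for Casq1 and -0.054 for Eno3; their ranges over all arrays left out reached 1.08, 1.35, 1.31, 1.18 and 0.66. The NP count past the thresholds, 6 with all arrays, ran between 1 (without cKO array 1) and 9 (without cKO array 2), and was 3 without cKO array 3 and 3 without fl/fl array 4. The NP median ran between 0.26 and 0.55. Leaving out NP cKO arrays 1 and 3 together, chosen after seeing the data, gave a count of 1 and a median of -0.00089. The number of muscle genes at an adjusted p under 0.05 in AF was 0 under all alternatives run with limma. Equal replicate numbers did not pair cKO with fl/fl arrays within a tissue: correlations of their deviations ran from -0.13 to 0.05. Whether NP and AF arrays of equal number came from the same mouse was not checked, and the fit over all 16 arrays took them as separate. With the replicate number as a block, the AF count past the thresholds was 1 with a median of 0.24, and the NP count was 7.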
